A study of Mus musculus with 12 samples.

Results

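The genes described here are the 4 tyrosine kinase receptors for fibroblast growth factors (FGF), Fgfr1 to Fgfr4, the receptor Met, and the feedback and response genes Spry1, Spry2, Spry4, Dusp6 and Etv4. They were taken by name and each had 1 row, so 10 genes of the 23586 in the table were read, and all 10 passed the filter of 10 or more normalized counts in 3 or more of the 12 libraries. The libraries came from mouse muscle stem cells, the progenitors that repair skeletal muscle, sorted by the GFP of the allele Pax3nLacZ-IRES-GFP, which every group carried. GFP marks expression of Pax3, a transcription factor of muscle progenitors. After sorting, cells grew in medium with 20% serum and basic FGF at 4 ng/mL, and were transfected by lipofection with 2 µg of pCR3-Six2, a plasmid with mouse Six2 complementary DNA, or with empty pCR3. The 4 groups, of 3 libraries each, were GFP-positive cells with the SIX2 plasmid, GFP-positive cells with the control plasmid, GFP-negative cells with the SIX2 plasmid and GFP-negative cells with the control plasmid. Each library was made from at least 50000 cells. No group lacked basic FGF, so every level below was measured under FGF. The labels do not say whether the 3 libraries of a group were separate animals or cultures, and p-values therefore measure only the spread between these libraries.

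FGF receptors bind FGF together with heparan sulfate and signal through the adaptor FRS2 and the chain from RAS to the kinases MEK and ERK. ERK activity induces its own brakes, among them the Sprouty proteins, which act early in this chain, and DUSP6, a phosphatase of ERK, and induces ETV4, a transcription factor of the ETS family. In muscle stem cells FGF sustains proliferation and delays differentiation, and MET is the receptor of hepatocyte growth factor (HGF), which helps to activate these cells. Fgfr4 and Met are known targets of PAX3 in the embryo.

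Depth ran from 12632428 to 15492340 reads in GFP-positive SIX2 libraries, from 31295165 to 47299937 in GFP-positive control, from 34048869 to 40182810 in GFP-negative SIX2 and from 12438885 to 33151990 in GFP-negative control libraries. GFP-negative control library 1 and the GFP-positive SIX2 libraries were the shallowest. Every SIX2 library was shallower than every control library in the GFP-positive population, and deeper in the GFP-negative population. Plasmid label and depth, or a preparation difference that goes with depth, can therefore not be fully told apart. Six2 itself, with 2 to 36 reads a library, did not pass the test between plasmid labels (limma-trend adjusted p = 0.209 in the GFP-positive and 0.421 in the GFP-negative population). Pax3 was not higher in GFP-positive libraries either, with a log2 difference of -0.01 ± 0.41 (SE) in control libraries, and it had 3.90 to 14.7 normalized counts in GFP-positive SIX2, 59.9 to 94.1 in GFP-positive control, 13.8 to 19.3 in GFP-negative SIX2 and 68.2 to 73.2 in GFP-negative control libraries. Directions below are therefore between labels. The muscle lineage was plain in every library: Myod1, a factor that commits cells to muscle, had at least 14410 and desmin (Des), the muscle intermediate filament, at least 97424 normalized counts. The summed level of 11 muscle markers was 299043 to 330840 in GFP-positive SIX2 and 355829 to 375968 in GFP-positive control, and 249612 to 279820 in GFP-negative SIX2 and 348651 to 363352 in GFP-negative control libraries. Most of that was Des and Myog (70194 to 94515), while Pax7 had 82.5 to 184 and Chodl 0 to 15.7. Of 6 endothelial markers none passed the filter, with a sum of at most 41.3. Fibro-adipogenic markers, 6 of 9 with values, summed to 2901 to 3095 in GFP-positive SIX2 and 2719 to 3248 in GFP-positive control, and to 3164 to 3516 in GFP-negative SIX2 and 3348 to 3721 in GFP-negative control libraries. Most of that was Gsn (2672 to 3667), while Cd34 had a median of 29.5, Ly6a of 17.0 and Dcn of 0. Tendon markers, 2 of 3 with values, summed to 355 to 464 in GFP-positive SIX2 and 426 to 632 in GFP-positive control, and to 334 to 416 in GFP-negative SIX2 and 434 to 490 in GFP-negative control libraries, mostly Scx. Immune markers, 5 of 6 with values, summed to between 64.5 and 111 in any library, with medians of 58.3 for Itgam, 19.9 for Cd68, 12.7 for Csf1r and 0 for Adgre1 and Cd3e. Schwann cell markers, 3 of 4 with values, summed to at most 25.7. Mural cell markers, 4 of 5 with values, summed to 625 to 690 in GFP-positive SIX2 and 305 to 328 in GFP-positive control, and to 538 to 784 in GFP-negative SIX2 and 358 to 527 in GFP-negative control libraries, nearly all of it Pdgfrb and Notch3. The part of these shifts in the results below was not tested. In bulk RNA, fewer expressing cells and less RNA per cell cannot be told apart.

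**Figure D1:**
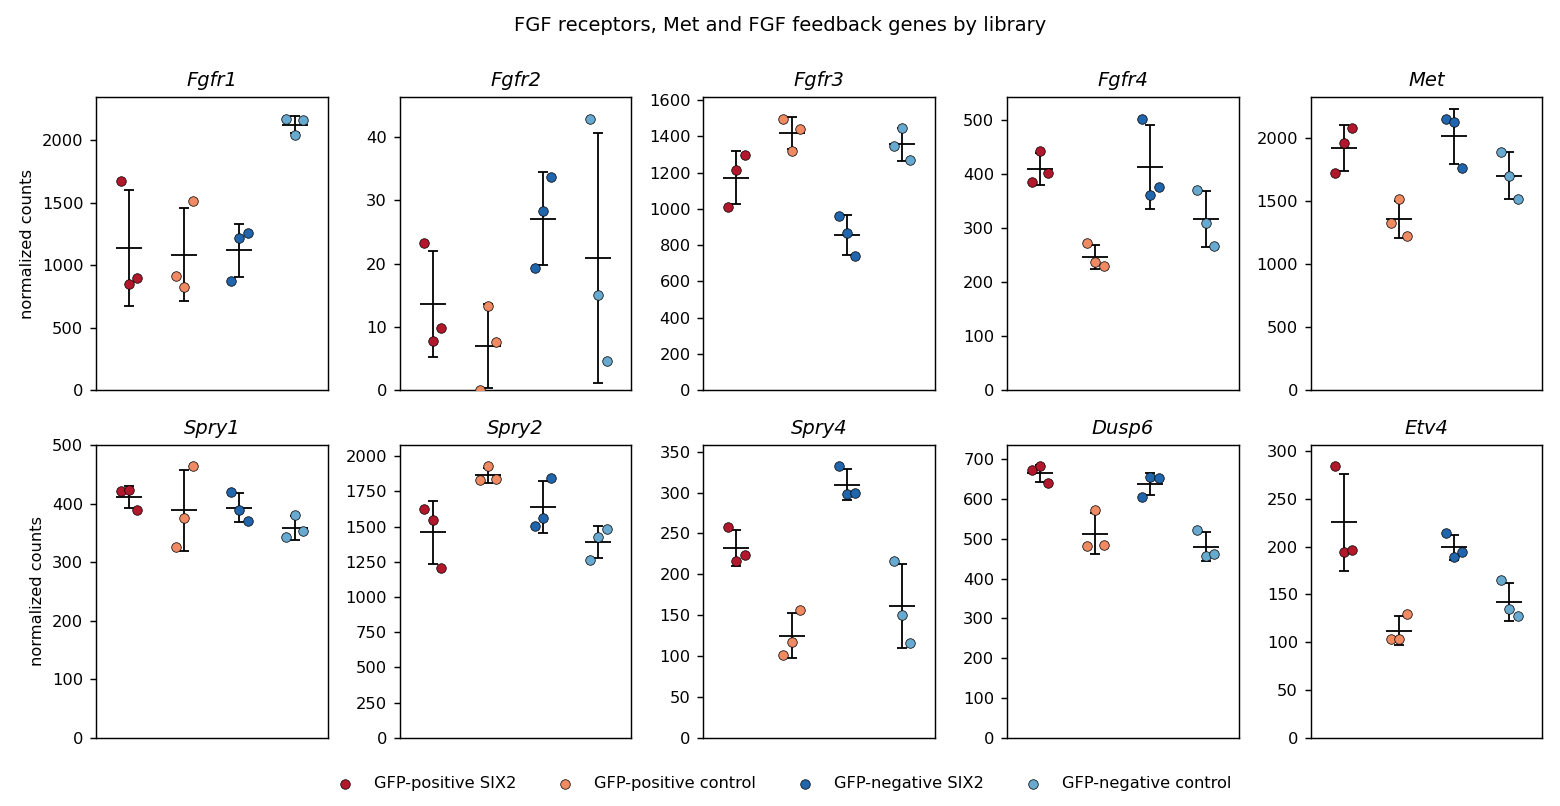
Normalized counts of the 10 genes in each of 12 libraries, on linear axes from 0; points are libraries, horizontal bars the mean and whiskers the SD of 3 libraries. Spry4, Dusp6 and Etv4 are higher in libraries labelled SIX2 in both populations without overlap, and Fgfr1 is at 2045 to 2172 in GFP-negative control libraries, above the 828 to 1674 of the other groups.

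Levels were compared between genes as normalized counts per kilobase of annotated exon, averaged over the 12 libraries. Spry2, a Sprouty brake, stood above every other gene at 761, with a range of 578 to 924. Met followed at 228 (160 to 281), then the phosphatase gene Dusp6 at 183 (146 to 218), Fgfr3 at 168 (104 to 209), Fgfr1 at 138 (83.8 to 220) and Spry1 at 134 (112 to 160). Fgfr4 reached 97.6 (64.8 to 142), Etv4 54.7 (33.3 to 91.5) and Spry4 43.5 (21.4 to 69.8). Fgfr2 was last at 1.66 (0 to 4.15). From Met to Spry4, the ranges of neighbouring genes in this order overlapped, so that only Spry2 and Fgfr2 were set apart from their neighbours. The order among receptors turned on the length used: per kilobase of the longest transcript, Fgfr3 had 283, Fgfr1 271, Met 257 and Fgfr4 104. Gene counts do not separate the splice forms that give the FGF receptors their ligand preference.

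The positions of the genes on GRCm38 are, for the receptors, chromosome 8 from 25513654 to 25575718 for Fgfr1 (ENSMUSG00000031565.18), chromosome 5 from 33721674 to 33737068 for Fgfr3 (ENSMUSG00000054252.18), chromosome 13 from 55152640 to 55168759 for Fgfr4 (ENSMUSG00000005320.9) and chromosome 6 from 17463800 to 17573980 for Met (ENSMUSG00000009376.15), all on the plus strand. Among the feedback genes, Dusp6 (ENSMUSG00000019960.8) lies on chromosome 10 from 99263231 to 99267489, plus strand, and Spry2 (ENSMUSG00000022114.5) on chromosome 14 from 105891947 to 105896819, minus strand. Fgfr2 (ENSMUSG00000030849.18) lies on chromosome 7 from 130162451 to 133123350, minus strand, Spry1 (ENSMUSG00000037211.12) on chromosome 3 from 37639947 to 37644598, plus strand, and Etv4 (ENSMUSG00000017724.14) on chromosome 11 from 101769742 to 101785371, minus strand. The annotated Fgfr2 gene shares exon bases with the neighbouring Ctbp2 on the same strand. Ctbp2 had 195 to 358 normalized counts, so the few Fgfr2 reads are uncertain. Exons of Fgfr1, Fgfr3 and Spry1 overlap the transcripts Gm16159, G630022F23Rik and Gm42922 on the opposite strand, which the library protocol cannot tell apart. Those partners were listed at no more than 20.7, 2.77 and 7.65 normalized counts in any library. RefSeq promoter windows of GRCm38.p6, running from 250 bases before to 50 bases after a start site, were matched for 7 of the 10 genes. Fgfr1 and Etv4 had none, and Spry4 was left out of the search. The last 50 bases of the Fgfr2 window lie in no annotated Fgfr2 transcript. The windows were searched on both strands for CCGGAA, a sequence bound by ETS factors such as ETV4, but not for the shorter ETS core GGAA. The other motifs were TCAGGTT, the core of the MEF3 element of muscle promoters, and CAGCTG, an E-box bound by MYOD1. These motifs do not overlap each other, and over all 32851 windows they occur in 14.9%, 4.07% and 16.3%. Shown are the 3 windows with a match, of Fgfr4, Fgfr3 (the first of its pair of windows) and Spry2, and that of Dusp6, which rose in both populations and holds none of these letters. They are chr13:55152568-55152867 (plus strand), chr5:33721474-33721773 (plus strand), chr10:99262981-99263280 (plus strand) and chr14:105896770-105897069 (minus strand), each 5′ to 3′ along the gene with the matches in capitals.
Fgfr4: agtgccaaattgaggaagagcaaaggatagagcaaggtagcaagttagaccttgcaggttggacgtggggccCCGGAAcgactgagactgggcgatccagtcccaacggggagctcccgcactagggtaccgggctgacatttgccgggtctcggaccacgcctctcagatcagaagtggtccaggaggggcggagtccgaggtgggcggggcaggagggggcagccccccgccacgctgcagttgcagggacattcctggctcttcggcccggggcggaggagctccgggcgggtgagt
Fgfr3: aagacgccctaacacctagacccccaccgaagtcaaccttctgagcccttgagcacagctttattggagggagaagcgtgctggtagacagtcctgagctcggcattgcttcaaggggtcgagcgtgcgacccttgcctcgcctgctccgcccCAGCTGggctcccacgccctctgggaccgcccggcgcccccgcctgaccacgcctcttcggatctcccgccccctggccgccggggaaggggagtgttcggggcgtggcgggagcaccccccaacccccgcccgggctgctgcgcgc
Dusp6: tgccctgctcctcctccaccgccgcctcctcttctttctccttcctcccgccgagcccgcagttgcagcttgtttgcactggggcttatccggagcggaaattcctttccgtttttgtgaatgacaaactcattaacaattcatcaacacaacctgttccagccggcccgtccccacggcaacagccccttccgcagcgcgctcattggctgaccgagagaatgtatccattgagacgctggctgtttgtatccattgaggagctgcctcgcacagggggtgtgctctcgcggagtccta
Spry2: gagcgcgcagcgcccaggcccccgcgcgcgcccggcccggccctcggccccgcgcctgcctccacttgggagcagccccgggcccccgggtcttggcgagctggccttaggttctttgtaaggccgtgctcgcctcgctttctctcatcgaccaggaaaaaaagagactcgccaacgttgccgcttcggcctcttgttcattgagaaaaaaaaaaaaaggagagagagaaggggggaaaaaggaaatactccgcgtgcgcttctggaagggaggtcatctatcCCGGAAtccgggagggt
Distances are from the RefSeq start sites, which for Fgfr4 and Fgfr3 lie inside the annotated genes as positioned above. The Fgfr4 match is CCGGAA, beginning 178 bases before its RefSeq start site, at the first base of the annotated gene. The Spry2 match is CCGGAA at base 34 of the transcript. The Fgfr3 match is CAGCTG, beginning 97 bases before its RefSeq start site. TCAGGTT was in none of the windows searched for these genes. A match is a run of letters and says nothing on binding in these cells.

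Plasmid labels were compared within each sorted population, the question being what added SIX2 changes. Fgfr4, Met, Spry4, Dusp6 and Etv4 were higher and Spry2 was lower in GFP-positive libraries labelled SIX2. In GFP-negative libraries, Spry4 and Dusp6 were higher with the SIX2 label, and Fgfr1 and Fgfr3 were lower. In GFP-positive libraries 5 members were called higher and 1 lower, where 23.3% of all 14580 genes tested were called, 12.1% higher and 11.2% lower. In GFP-negative libraries 2 members were called higher and 2 lower, where 27.9% of genes were called, 13.6% higher and 14.3% lower. The median log2 difference of the members was 0.44 in the GFP-positive and 0.31 in the GFP-negative population, against -0.01 and 0.00 over all genes tested. The members were chosen with earlier results of these data known, so these shares and medians are only a description. Calls are limma-trend adjusted p under 0.05, adjusted by Benjamini-Hochberg over all genes, and differences are on the log2(normalized count + 1) scale.

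**Figure D2:**
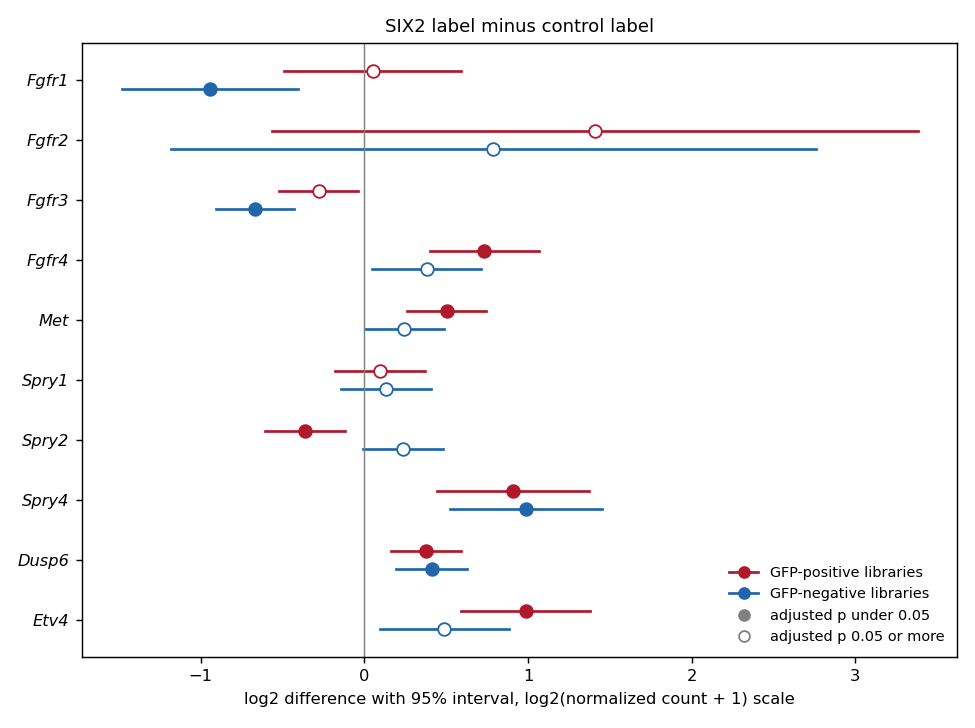
Difference by plasmid label (SIX2 minus control) for each gene in GFP-positive and GFP-negative libraries, as log2 difference with its 95% interval; filled points passed limma-trend with adjusted p under 0.05. The intervals of Fgfr4, Met, Spry4, Dusp6 and Etv4 lie above 0 in both populations, with both points filled for Spry4 and Dusp6, and the points of Spry2 lie on opposite sides of 0.

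Fgfr4 is a receptor of the muscle lineage and of other tissues. It had 384, 442 and 401 normalized counts in GFP-positive SIX2 libraries, against 272, 237 and 229 in GFP-positive control libraries. All SIX2 libraries were above all control libraries, and the log2 difference of 0.73 ± 0.15 (SE) was called (adjusted p = 0.00399 by limma-trend). In GFP-negative libraries it had 501, 361 and 375 with the SIX2 plasmid, against 371, 309 and 267 with the control plasmid. These groups overlapped, and the difference of 0.38 ± 0.15 did not pass the test (adjusted p = 0.0832). It passed without GFP-negative control library 1 (0.50, adjusted p = 0.0434), with library weights, and with trends of GC content removed (0.53, adjusted p = 0.0187).

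Met had 1722, 1960 and 2081 normalized counts in GFP-positive SIX2 libraries, against 1325, 1518 and 1226 in GFP-positive control libraries, with no overlap. Its log2 difference was 0.50 ± 0.11 (SE; limma-trend adjusted p = 0.00579). In GFP-negative libraries it had 2155, 2131 and 1763 with the SIX2 plasmid, against 1891, 1697 and 1518 with the control plasmid. The library with 1763 lay below the highest control library, and the difference of 0.24 ± 0.11 was not called (adjusted p = 0.126). With library weights this difference was called (0.29, limma adjusted p = 0.0124), and under no other alternative setting. Met and Fgfr4 thus had the same sign in both populations. The difference between populations was 0.26 ± 0.16 for Met and 0.35 ± 0.22 for Fgfr4, with 95% intervals of -0.08 to 0.60 and -0.12 to 0.82, and neither was called (adjusted p = 0.437 and 0.443).

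Fgfr1, the receptor most widely used by basic FGF, had 878, 1218 and 1261 normalized counts in GFP-negative SIX2 libraries, against 2172, 2045 and 2161 in GFP-negative control libraries. It fell by 0.94 ± 0.25 on the log2 scale (limma-trend adjusted p = 0.0127), and without GFP-negative SIX2 library 1 the call was lost (adjusted p = 0.055). In GFP-positive libraries the groups overlapped throughout, with 1674, 848 and 897 with the SIX2 plasmid, against 914, 828 and 1514 with the control plasmid. The difference there was 0.05 ± 0.25, with a 95% interval of -0.49 to 0.59, and without single libraries it ran from -0.26 to 0.32. A single library in each GFP-positive group was thus far above the other two. The difference of the SIX2 effect between populations was 0.99 ± 0.35 and was not called (adjusted p = 0.189).

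Fgfr3, a receptor best known for restraining bone growth, fell with the SIX2 label in the GFP-negative population. In GFP-negative libraries it had 960, 865 and 742 normalized counts with the SIX2 plasmid, against 1347, 1448 and 1271 with the control plasmid, a fall of 0.67 ± 0.11 (SE) on the log2 scale (limma-trend adjusted p = 0.000659). In GFP-positive libraries it had 1011, 1212 and 1294 with the SIX2 plasmid, against 1496, 1320 and 1438 with the control plasmid. Here too the groups did not overlap, but the difference of -0.28 ± 0.11 was not called (adjusted p = 0.0893). It was called without GFP-positive SIX2 library 3 (-0.35, adjusted p = 0.04997). Fgfr2, a receptor used mainly by epithelia and bone, had 23.2, 7.79 and 9.77 normalized counts in GFP-positive SIX2 and 0, 13.3 and 7.59 in GFP-positive control libraries. It had 19.3, 28.3 and 33.7 in GFP-negative SIX2 and 42.8, 15.1 and 4.69 in GFP-negative control libraries. A count of 0 in that library allows up to 3 reads, or 2.29 normalized counts, by counting error alone. These groups overlapped in both populations, at 0 to 56 reads a library, and neither difference was called (adjusted p = 0.304 in the GFP-positive and 0.567 in the GFP-negative population).

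Spry4, a Sprouty inhibitor of ERK signalling, had 257, 216 and 223 normalized counts in GFP-positive SIX2 libraries, against 102, 117 and 156 in GFP-positive control libraries. In GFP-negative libraries it had 332, 298 and 300 with the SIX2 plasmid, against 216, 151 and 115 with the control plasmid. All SIX2 libraries exceeded all control libraries of the same population. The log2 difference was 0.91 ± 0.22 (SE) in the GFP-positive and 0.99 ± 0.22 in the GFP-negative population (adjusted p = 0.00822 and 0.00405 by limma-trend). It was called under each of 27 alternative settings in both. The gene (ENSMUSG00000024427.7) lies on chromosome 18 from 38586247 to 38601415, minus strand.

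Dusp6 had 672, 682 and 640 normalized counts in GFP-positive SIX2 libraries, against 481, 573 and 485 in GFP-positive control libraries. With the SIX2 plasmid GFP-negative libraries had 606, 655 and 654, against 523, 457 and 462 with the control plasmid. The groups did not overlap in either population. Its rise was 0.38 ± 0.10 (SE) in the GFP-positive and 0.41 ± 0.10 in the GFP-negative population, with limma-trend adjusted p of 0.0149 and 0.00773. Among GFP-positive libraries the call was lost without control library 1 or 3 (adjusted p = 0.0588 and 0.0523) and with all libraries thinned to the smallest total (0.0668).

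Etv4, the ETS factor, had 284, 195 and 197 normalized counts in GFP-positive SIX2 libraries, against 103, 103 and 130 in GFP-positive control libraries. The log2 difference was 0.98 ± 0.18 (SE; limma-trend adjusted p = 0.00178). GFP-negative libraries had 214, 189 and 194 with the SIX2 plasmid, against 165, 135 and 128 with the control plasmid. No SIX2 library fell below a control library there, but the difference of 0.49 ± 0.18 missed the threshold (adjusted p = 0.0635). It passed in 6 of 15 settings that kept all libraries compared, among them DESeq2 (0.50, adjusted p = 0.0379) and GC trends removed (0.64, adjusted p = 0.0115), and without GFP-positive SIX2 library 1 (adjusted p = 0.0386).

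Spry2 fell in GFP-positive libraries, and Spry1 was called in neither population. Spry2 had 1627, 1549 and 1207 normalized counts in GFP-positive SIX2 libraries, against 1834, 1928 and 1836 in GFP-positive control libraries, a fall of 0.36 ± 0.11 (SE) on the log2 scale (limma-trend adjusted p = 0.0323). In GFP-negative libraries the order was turned round, with 1504, 1564 and 1848 with the SIX2 plasmid, against 1260, 1428 and 1483 with the control plasmid, though the difference of 0.23 ± 0.11 was not called (adjusted p = 0.143). Neither pair of groups overlapped. The fall lost its call without GFP-positive SIX2 library 3 (-0.23, adjusted p = 0.12), without GFP-positive control library 1, 2 or 3 (0.0664, 0.0922 and 0.0603), and with only the compared groups in the fit (0.0633). The difference between populations was -0.60 ± 0.16, which did not pass over all genes (adjusted p = 0.114). Spry1 had 422, 423 and 389 in GFP-positive SIX2 and 327, 376 and 464 in GFP-positive control libraries. It had 420, 390 and 371 in GFP-negative SIX2 and 343, 381 and 353 in GFP-negative control libraries. These groups overlapped in both populations, with 95% intervals of the log2 difference of -0.18 to 0.37 in GFP-positive and -0.14 to 0.41 in GFP-negative libraries.

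Over the members, 7 of 10 had no overlap between plasmid labels in GFP-positive libraries, 5 higher and 2 lower, where 36.8% of all genes tested had none (18.7% higher and 18.1% lower). In GFP-negative libraries 6 of 10 had none, 4 higher and 2 lower, where 46.3% of genes had none (22.8% higher and 23.5% lower). In both populations, 2 members (Spry4 and Dusp6) were called higher, against 7.42% of all genes tested, and 0 were called lower in both, against 6.31%. By a test over all 4 groups (limma's F test), 8 of 10 members were called, the exceptions being Fgfr2 and Spry1, against 34.4% of genes. For the difference of the SIX2 effect between populations, limma-trend and edgeR called 0 members and 0% of genes, and DESeq2 called 1 member, Spry2 (adjusted p = 0.0185), and 3.83% of genes. At an unadjusted p under 0.05, limma-trend had 3 members (Fgfr1, Fgfr3 and Spry2) and 2437 genes, 16.7% of those tested.

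The sorted populations were next compared under each plasmid label. These comparisons use the same libraries as the ones above. Among control libraries, Fgfr1 was lower in the GFP-positive population, with a log2 difference of -1.02 ± 0.25 (SE) and an adjusted p of 0.0428 by limma-trend. It was the only member called, where 3.48% of genes were, 0.919% higher and 2.56% lower. The call was lost without any 1 of the 6 control libraries other than GFP-positive control 3 (adjusted p from 0.0983 to 0.164), without GFP-negative SIX2 library 2 (0.064), and with edgeR (0.0597). Fgfr1 and Spry2 were the 2 members without overlap, where 27.2% of genes had none (13.0% higher and 14.1% lower). Spry2 was higher in each GFP-positive control library than in each GFP-negative one, by 0.43 ± 0.11, and missed the threshold (adjusted p = 0.0553), while DESeq2 called it (adjusted p = 0.00919) along with 7.46% of genes. Fgfr4 and Met had differences of -0.35 ± 0.15 and -0.33 ± 0.11 that were not called (adjusted p = 0.228 and 0.125). Among libraries labelled SIX2, limma-trend and edgeR called 0 members, where limma-trend called 0.192% of genes (0.0137% higher and 0.178% lower). The higher ones were 7.14% of the called genes, 21.6% with quantile scaling, 58.3% without GFP-negative SIX2 library 1 and 64.6% with DESeq2, so the balance of directions here rests on the setting. Fgfr3, higher, and Spry4, lower, had no overlap, where 17.2% of genes had none (9.05% higher and 8.16% lower). At an unadjusted p under 0.05 there was 1 member, Fgfr3, at 0.45 ± 0.11 (adjusted p = 0.116), where 13.0% of genes passed that level. DESeq2 called it (adjusted p = 0.0152) and 2.02% of genes.

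**Figure D3:**
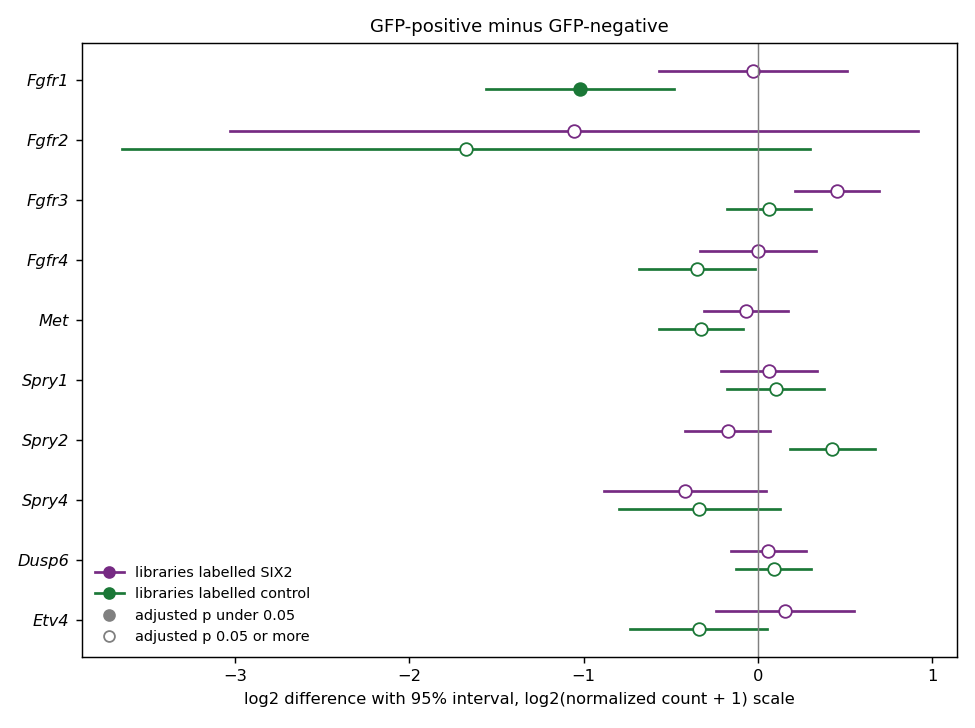
Difference between sorted populations (GFP-positive minus GFP-negative) for each gene in libraries labelled SIX2 and labelled control, as log2 difference with its 95% interval; filled points passed limma-trend with adjusted p under 0.05. Fgfr1 in control libraries, at -1.02, is the single filled point.

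The level of Fgfr1 followed a pattern across libraries that was shared with other genes. By Pearson's r of log2(normalized count + 1) over the 12 libraries, the genes most like it were Slc22a17 (0.99), Rsc1a1 (0.98) and Psme3, a proteasome activator subunit (0.97). Rsc1a1 shares exons with Ddi2, and its reads are uncertain. These correlations include the differences between groups and any effect of library depth or base composition, and carry no test. Each of these genes was highest in the 3 GFP-negative control libraries, and next highest in GFP-positive SIX2 library 1. In the annotated Fgfr1 transcript the richest window of 100 bases has 84% G and C. Over the 1459 genes with a window at or above that share, the median distance from each gene's mean over the 12 libraries was 0.12, 0.08 and 0.13 on the log2 scale in GFP-negative control libraries, and -0.11 to 0.07 in the others. With the trend over such windows removed, a setting chosen after seeing the data, the Fgfr1 difference by plasmid label in the GFP-negative population was -0.84 ± 0.22 (SE; limma-trend adjusted p = 0.0124). That by GFP label among control libraries was -0.87 ± 0.22 (adjusted p = 0.0497). With the trend over transcript GC content removed they were -0.84 and -0.98 (adjusted p = 0.0198 and 0.0438), and with the replicate number added as a block the GFP-label call was lost (adjusted p = 0.0736). The part of base composition in the Fgfr1 pattern was not tested beyond these settings.

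**Figure D4:**
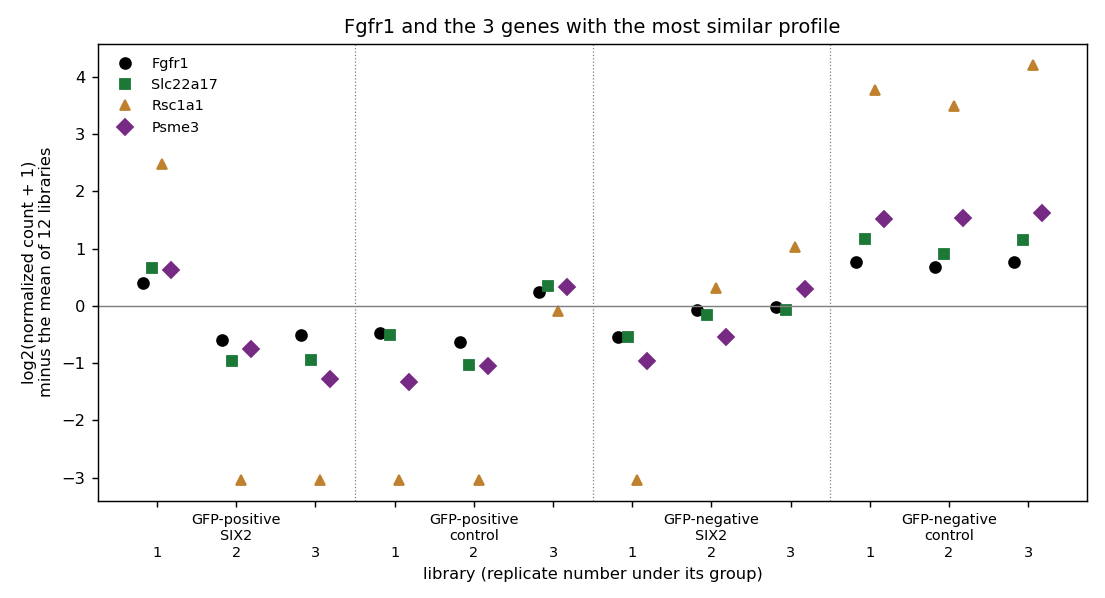
Fgfr1 and the 3 genes with the highest Pearson correlation to it, as log2(normalized count + 1) minus the mean of 12 libraries, in each library. The GFP-negative control libraries are highest for each gene, followed by GFP-positive SIX2 library 1.

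Other genes of the pathway were read from lists of ligands, co-receptors, signalling proteins and response genes, also chosen with earlier results known. Of the 24 tested feedback and ERK response genes outside the members, 7 rose and 3 fell with the SIX2 label in GFP-positive libraries, and 8 rose and 4 fell in GFP-negative libraries. The 4 that fell became 1 without GFP-negative control library 2 or 3, 2 without GFP-negative SIX2 library 2 or 3, and at most 6, without GFP-positive SIX2 library 1. The list's median log2 difference was 0.12 and 0.13. Between plasmid labels, 23.3% of all genes tested were called in the GFP-positive population, with a median of -0.01. In the GFP-negative population these values were 27.9% and 0.00. The plasmid-label counts of each list are to be read against these shares. Between GFP labels, 3.48% of genes were called in control libraries and 0.192% in libraries labelled SIX2. Etv5, the ETS factor closest to Etv4, had 1060 ± 111 (SD, n = 3) normalized counts in GFP-positive SIX2 against 567 ± 88.6 in GFP-positive control libraries, and 837 ± 77.1 in GFP-negative SIX2 against 532 ± 46.5 in GFP-negative control libraries. It was called in both (limma-trend adjusted p = 0.000203 and 0.00169). Errfi1, a feedback inhibitor of the EGF receptor, rose by 0.92 ± 0.08 (SE) in the GFP-positive and 0.93 ± 0.08 in the GFP-negative population, the AP-1 gene Fosl1 by 1.37 ± 0.20 and 1.11 ± 0.20, and the cyclin Ccnd1 by 0.97 ± 0.15 and 0.84 ± 0.15. Spsb1, an adaptor of a ubiquitin ligase, fell by 0.57 ± 0.11 and 0.88 ± 0.11. Between GFP labels, the ERK phosphatase gene Dusp5 had 80.6 ± 37.7 (SD) normalized counts in GFP-positive control libraries, against 478 ± 33.0 in GFP-negative control libraries (limma-trend adjusted p = 0.0296). Dusp5 was the only gene of this list called in that comparison, where 3.48% of all genes tested were called, 2.56% lower. This call was lost without any 1 of the 6 control libraries other than GFP-positive control 3 (adjusted p from 0.0783 to 0.125).

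Of 17 tested co-receptors and heparan sulfate genes, 6 rose and 1 fell with the SIX2 label in GFP-positive libraries, and 7 rose and 4 fell in GFP-negative libraries, with list medians of 0.15 and 0.27. The heparan sulfate proteoglycan Sdc4, also one of the 11 muscle markers summed above, had 3509 ± 293 (SD, n = 3) normalized counts in GFP-positive SIX2 against 1868 ± 142 in GFP-positive control libraries, and 3609 ± 148 in GFP-negative SIX2 against 2140 ± 61.6 in GFP-negative control libraries (limma-trend adjusted p = 4.73e-06 and 1.71e-05). Sulf1, an enzyme that trims sulfate from heparan sulfate, rose by 0.75 ± 0.13 (SE) and 1.15 ± 0.13, and Cd44, a hyaluronan receptor, by 0.86 ± 0.09 and 0.72 ± 0.09. Fgfrl1, an FGF receptor without a kinase domain, fell by 0.68 ± 0.12 in the GFP-positive and 0.85 ± 0.12 in the GFP-negative population. The proteoglycan Gpc1 had 5746 ± 1938 (SD) normalized counts in GFP-positive SIX2 and 6914 ± 2269 in GFP-positive control libraries, where it was not called, and 5051 ± 234 in GFP-negative SIX2 against 17234 ± 1219 in GFP-negative control libraries (limma-trend adjusted p = 6.18e-05). Between GFP labels in control libraries, 3 genes of this list were lower in GFP-positive libraries, where 3.48% of all genes tested were called, 2.56% lower. Their log2 differences were -1.36 ± 0.15 (SE) for Sdc3, -1.37 ± 0.21 for Gpc1 and -0.36 ± 0.09 for Cd44. In libraries labelled SIX2 Sulf1 was lower, at -0.75 ± 0.13 (adjusted p = 0.0274 by limma-trend), where 0.192% of genes were called. The call of Cd44 was lost without any of 9 single libraries (adjusted p up to 0.184), and that of Sulf1 without any of 6 (adjusted p up to 0.154), while those of Sdc3 and Gpc1 held without each.

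**Figure D5:**
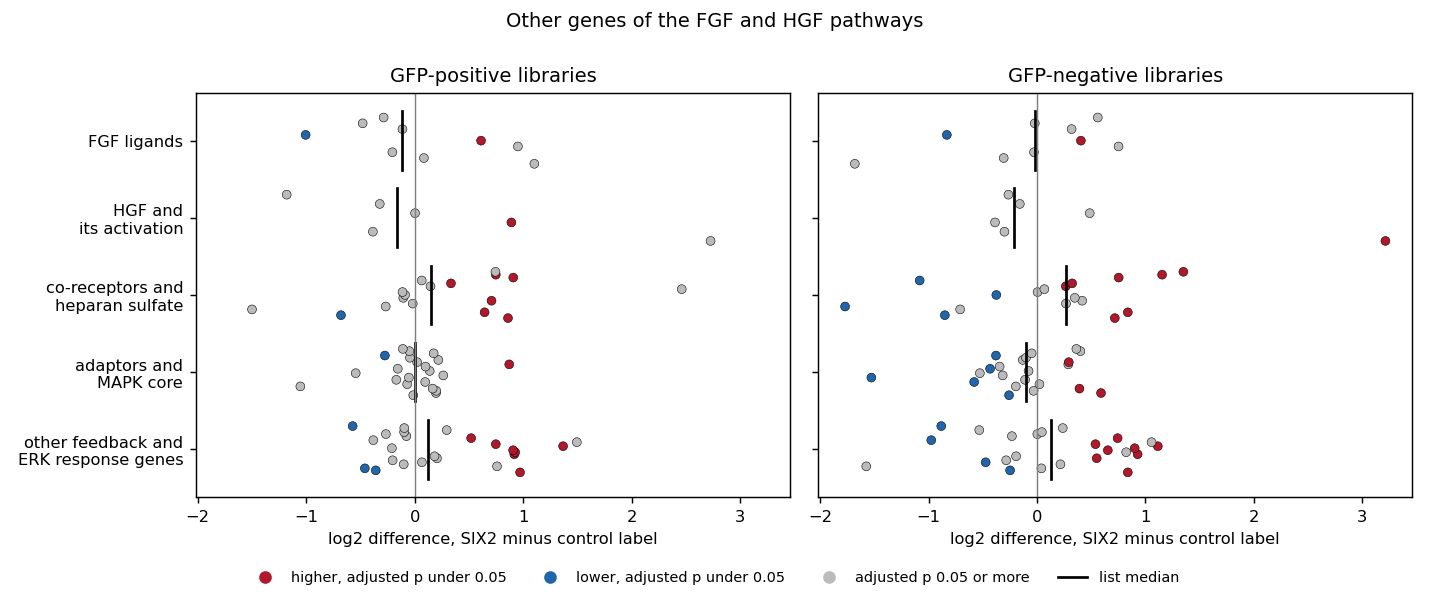
Log2 difference by plasmid label (SIX2 minus control) of the other pathway genes, each point 1 gene, in GFP-positive and GFP-negative libraries; colours mark genes with limma-trend adjusted p under 0.05 and black bars the list medians. Among 17 co-receptor genes 6 are called higher and 1 lower in the GFP-positive population, and 7 higher and 4 lower in the GFP-negative one. Among 24 response genes these counts are 7 and 3, and 8 and 4.

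Of 22 genes for adaptors and the RAS to ERK chain, 1 rose and 1 fell with the SIX2 label in GFP-positive libraries, and 3 rose and 5 fell in GFP-negative libraries, with list medians of 0.00 and -0.11. Without GFP-positive SIX2 library 3, 2 rose and 2 fell in GFP-positive libraries. Mapk3, which encodes an ERK kinase, rose by 0.87 ± 0.15 (SE) in GFP-positive libraries (limma-trend adjusted p = 0.00123), and its difference of 0.29 ± 0.15 in GFP-negative libraries was not called. Hras had 315 ± 47.7 (SD) normalized counts in GFP-positive SIX2 and 329 ± 65.0 in GFP-positive control libraries, and 248 ± 17.9 in GFP-negative SIX2 against 728 ± 174 in GFP-negative control libraries (limma-trend adjusted p = 5.94e-05). Among GFP-negative libraries, Map2k2, a MEK kinase, also fell, by 0.43 ± 0.06 (SE), and Nras rose by 0.29 ± 0.06. Hras was lower in the GFP-positive population among control libraries, at -1.14 ± 0.18 (limma-trend adjusted p = 0.00693).

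Of 22 FGF ligand genes, 9 were tested, and in each population 1 rose and 1 fell with the SIX2 label, with list medians of -0.11 and -0.02. In the GFP-negative population 2 rose without GFP-positive SIX2 library 1, and 2 fell without GFP-positive control library 1 or 3 or GFP-negative SIX2 library 1. Fgf21, a stress-induced hormone, had 4462 ± 150 (SD, n = 3) normalized counts in GFP-positive SIX2 against 2925 ± 227 in GFP-positive control libraries, and 3375 ± 583 in GFP-negative SIX2 against 2525 ± 87.3 in GFP-negative control libraries (limma-trend adjusted p = 0.000796 and 0.00947). Fgf5 had 266 ± 49.0 in GFP-positive SIX2 against 528 ± 26.9 in GFP-positive control libraries, and 242 ± 65.1 in GFP-negative SIX2 against 422 ± 51.4 in GFP-negative control libraries (adjusted p = 0.00227 and 0.00615). Fgf6, a ligand made mainly by skeletal muscle, had 611 ± 48.1 normalized counts in GFP-positive control libraries against 404 ± 17.2 in GFP-negative control libraries (adjusted p = 0.0200), a call lost without GFP-positive control library 1 or 2 or any GFP-negative control library (adjusted p from 0.0521 to 0.0805). Of 6 genes for HGF and its activation, 1 rose in each population, with list medians of -0.16 and -0.21. In the GFP-positive population 2 rose without GFP-positive control library 1 or GFP-negative control library 3, and 0 rose without GFP-positive SIX2 library 1 or 2 or GFP-positive control library 2 or 3. In the GFP-negative population 0 rose without GFP-negative SIX2 library 1 or 3 or GFP-negative control library 3. Hgf, the ligand of MET, was near the detection floor, with 28.9 ± 8.54 (SD) in GFP-negative SIX2 against 3.01 ± 2.62 in GFP-negative control libraries (adjusted p = 0.0229), a call lost without GFP-negative SIX2 library 1 or 3 or GFP-negative control library 3 (adjusted p from 0.0666 to 0.0952). Plau, the urokinase that can activate HGF, had 129 ± 44.4 in GFP-positive SIX2 against 66.4 ± 10.4 in GFP-positive control libraries (adjusted p = 0.0299), and was lower in the GFP-positive population among control libraries, with a log2 difference of -1.16 ± 0.27 (SE). Both Plau calls were lost without several single libraries, with adjusted p up to 0.120 for the plasmid label and 0.142 for the GFP label.

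With limma-trend on all libraries, 0 genes of these lists passed the test for a difference of the SIX2 effect between populations. The smallest adjusted p by limma-trend belonged to Hras (log2 difference of the effects 1.47, adjusted p = 0.0751) and Sdc3 (1.15, adjusted p = 0.0751), followed by Gpc1 (adjusted p = 0.0782) and the immediate early gene Fos (-1.11, adjusted p = 0.102). At an unadjusted p under 0.05 there were 21 of the 78 tested genes, against 16.7% of all genes tested. edgeR called 0, and DESeq2 called 6 higher and 1 lower, Hras, Sdc3, Gpc1 and Fos among them, where it called 3.83% of all genes. With library weights these 4 genes were called (limma adjusted p from 0.0177 to 0.0383). Hras, Sdc3 and Gpc1 were called without GFP-positive control library 3 (limma-trend adjusted p from 0.0165 to 0.0213) and without GFP-positive SIX2 library 3 (0.0389 to 0.0463). Hras, Sdc3 and Gpc1 each had their highest mean in GFP-negative control libraries, as Fgfr1 did.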

How the data were processed

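Bulk RNA of cultured mouse muscle stem cells was made into SMART-Seq2 libraries with Tn5 fragmentation, per the labels' protocols. Per the submitters' processing notes, STAR 2.7.11a and RSEM 1.3.3 were used with build GRCm38, as was DESeq2 1.42.0, without settings given. The deposited values are normalized counts per gene, a signal on a linear scale. In each library they are whole multiples of 1 step, which gave back whole reads for 100% of values within 1e-04, and 1 read was worth 0.553 to 2.14 normalized counts. Lengths and positions came from GENCODE M21, which held 99.8% of the identifiers.

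Groups follow the sample titles. One limma-trend fit (limma 3.58.1, R 4.3.3) of log2(normalized count + 1) over all 12 libraries and 14580 genes gave every comparison, two-sided, with Benjamini-Hochberg adjustment and a threshold of 0.05. The code of the fit was tried on simulated reads with planted changes, which does not check the calls in these data. edgeR 4.0.16 and DESeq2 1.42.0 were run on the recovered reads as alternatives, beside other pseudocounts, filters, scalings, weights, blocks, GC trends, thinning to the smallest read total and each library left out. Members and lists were chosen with earlier results of these data known. In each list, up to 4 called genes with the smallest p were named per comparison, some also with their values in the other population. Some of these genes are not reported here. No replicate pair of a group agreed within sampling noise, with chi-square per degree of freedom from 7.71 to 49.4. Figures were drawn with matplotlib 3.10.9.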

Additional observations from a re-analysis of the deposited data

Results flagged for a closer look

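The Spry2 libraries labelled SIX2 lay on opposite sides of control in the sorted populations. All 3 GFP-positive SIX2 libraries were below all 3 GFP-positive control libraries, and all 3 GFP-negative SIX2 libraries were above all 3 GFP-negative control libraries. The difference of the effects, GFP-positive minus GFP-negative, was -0.60 ± 0.16 (SE) on the log2 scale. It was not called by limma-trend over all genes (adjusted p = 0.114, and 0.0185 to 0.252 over the alternatives), and DESeq2 gave the lowest of these. No cause was tested.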

How the results depend on the processing

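Of 751 repeats of 28 differences under 27 alternative settings, 703 kept direction and side of the threshold, 21 lost a call, 23 gained one and 4 turned sign. The 4 belonged to uncalled genes of the GFP-positive population without single libraries, where Fgfr1 ran from -0.26 to 0.32 and Spry1 from -0.023 to 0.23. The number of members called between GFP labels in control libraries, 1, became 0 with no filter, quantile scaling or edgeR, and 2 with a mean of at least 50, only the groups compared, library weights or DESeq2. Over all genes that comparison, with 507 calls, gave 1520 with library weights and 1087 with DESeq2. For the SIX2 label in GFP-negative libraries, library weights gave 6142 genes and 7 members. Between GFP labels in SIX2 libraries, with 28 genes and 0 members, DESeq2 gave 294 genes and 1 member. The difference of the SIX2 effect, 0 genes and 0 members, became 282 genes with library weights, 558 genes and 1 member with DESeq2, 1 gene after thinning to the smallest total and 3 with the trend of the richest GC window removed. Leaving out 1 library at a time gave, between GFP labels in control libraries, 0 to 2 members and 68 to 820 genes, the lowest count without GFP-negative control 1 and the highest without GFP-positive control 3. It gave 13 to 60 genes between GFP labels in SIX2 libraries (without GFP-negative SIX2 library 3 and 1), and 0 to 171 genes for the difference of effects (171 without GFP-positive control library 3). Of 1256 repeats of 47 differences of other pathway genes, 1186 kept direction and side, 54 lost a call, 16 gained one and 0 turned sign. The causes were not tested. Fgfr2 had 0 to 56 reads a library.

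Replicate numbers recur across groups. Deviations of same-numbered libraries had correlations of -0.203 to 0.0445, and those of differently numbered libraries of -0.0577 to 0.169. The labels do not say whether same-numbered libraries share an animal, sort or culture, and these correlations cannot exclude it. With a replicate block the control comparison of GFP labels gave 298 genes and 0 members, and 317 genes and 0 members with GC trends removed as well. Under the block Spry2 in GFP-positive libraries lost its call (adjusted p = 0.0549 by limma-trend).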

Other observations

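The genes most like each other member, by Pearson's r of log2(normalized count + 1) over the 12 libraries, are given as a description with no test, since group differences, depth and base composition enter each value. Fgfr3 was closest to Mapre3 (0.99), Smarcal1 (0.98) and the sarcomere gene Ldb3 (0.97). Fgfr4 was closest to Ndn (0.96), Tns3 and Pofut2 (0.95 each, rounded), and Met to Mbtps1 (0.96), Fads1 and Lrrc8c (0.95 each). For Spry4 the closest were Pml, Csrp2 and Sec24b (0.96 each), for Dusp6 Ccdc102a (0.98), Akap12 (0.97) and Lrfn3 (0.96), and for Etv4 Trnau1ap (0.98), Zyx and Tspo (0.97 each). Spry2 was closest to Tpr (0.96), Sox11 (0.93) and Eif2s2 (0.91). Spry1 had no gene above 0.83, the value of Gm49721. For Fgfr2, which had few reads, Hars had the highest value (0.95).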
